A study of Homo sapiens with 8 samples.

Results

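Binding of the transcription factor RFX7 was examined at 5 genes that regulate phosphoinositide 3-kinase (PI3K), AKT and mTOR signalling: PIK3IP1, PIK3R2, PIK3R3, AKT1S1 and DDIT4. These 5 genes, of 20037 protein-coding genes in the annotation, were selected on RFX7 intervals already seen near them in these same lists, so the presence and rank of those intervals is a description and not a test. For each gene, all deposited intervals with a midpoint inside the gene or within 50 kb of either end were collected, which gave 9 of 304 intervals from cells treated with Nutlin-3a and 4 of 213 from cells treated with the solvent DMSO. The series used U2OS, a human osteosarcoma cell line, exposed for 24 h to 10 µM Nutlin-3a, a compound that stabilises p53 by blocking MDM2, or to DMSO. Each treatment comprised 2 RFX7 chromatin immunoprecipitation and sequencing (ChIP-seq) libraries, made with 3 µg of antibody per immunoprecipitation, and 2 input libraries. All groups share the cell line and the length of treatment. The design compares RFX7 binding with and without Nutlin-3a. The labels do not say whether replicates came from separate cultures. The values below come from 1 merged list for each treatment and therefore carry no replicate error.

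RFX7 belongs to the regulatory factor X family, whose members bind X-box sequences through a winged-helix domain. In the pathway, class I PI3K couples growth factor receptors to AKT, and AKT in turn relieves inhibition of mTORC1, the kinase complex that promotes protein synthesis and cell growth. PIK3R2 and PIK3R3 encode regulatory subunits of class I PI3K. PIK3IP1 is a transmembrane protein that restrains PI3K activity. AKT1S1, also called PRAS40, is an AKT substrate and an inhibitory component of mTORC1. DDIT4, also called REDD1, is a stress-induced inhibitor of mTORC1 that acts through the TSC1-TSC2 complex.

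At PIK3R3 and DDIT4 the RFX7 intervals of both lists covered a transcription start in the RefSeq promoter table, and the sequences there are shown because these were the only members with a sequence in that table under an interval (for PIK3R3, that of the start nearest to the interval midpoints). Each runs from 250 bases before the start to 30 bases after it, 5′ to 3′ on the gene's own strand, with build GRCh38.p14 and the RefSeq promoter table as source. Capitals mark the only match in each 300-base promoter window to GTTGC, the core of 1 arm of the X-box, or to its reverse complement. The PIK3R3 sequence is chr1:46133007-46133286 on the minus strand, for the start at 46133036, and all of its 280 bases lay within the DMSO interval. The DDIT4 sequence is chr10:72273674-72273953 on the plus strand, for the start at 72273924, and 263 of its 280 bases were in the DMSO interval, which the sequence contains whole.
PIK3R3: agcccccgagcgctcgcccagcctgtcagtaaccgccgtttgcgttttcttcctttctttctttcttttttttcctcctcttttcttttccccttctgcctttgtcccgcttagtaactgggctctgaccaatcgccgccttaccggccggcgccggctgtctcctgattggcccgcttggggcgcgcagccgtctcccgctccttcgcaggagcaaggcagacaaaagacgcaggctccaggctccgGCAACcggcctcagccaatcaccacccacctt
DDIT4: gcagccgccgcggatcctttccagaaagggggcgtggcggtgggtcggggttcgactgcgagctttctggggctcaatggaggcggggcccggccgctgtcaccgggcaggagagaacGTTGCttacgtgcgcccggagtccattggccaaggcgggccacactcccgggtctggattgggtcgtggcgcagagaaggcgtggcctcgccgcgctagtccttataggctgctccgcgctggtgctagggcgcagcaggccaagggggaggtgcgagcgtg
In PIK3R3 the match is preceded by a further matching base and so forms the 6-base X-box arm GTTGCC, read on the opposite strand. It lies across the start itself, with its first base 3 bp before it, and 141 bp from the midpoint of the DMSO interval. In DDIT4 the core match begins 132 bp before the start and lies 27 bp from the midpoint of the DMSO interval, while 228 bp separate it from the midpoint of the wider Nutlin-3a interval. PIK3R3 has 6 promoter windows in the table, and only 2, which overlap and share this match, held GTTGC or GTTGCC. The other 4 held neither, among them 1 of the 3 windows covered by the Nutlin-3a interval. Neither gene had a window with the palindromic X-box, searched as GTTGC and GCAAC separated by any 4 bases.

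These letters are common in promoters. Of 35116 promoter windows of 300 bases in the table, 33.6% held GTTGC on either strand and 12.2% held GTTGCC, which contains it. Among the 146 windows touched by a Nutlin-3a interval, 63.0% held GTTGC and 28.1% held GTTGCC. Among the 13 windows touched by a DMSO interval, 11 held GTTGC and 2 held GTTGCC. These 2 were the overlapping PIK3R3 windows that share the match shown above. They and the DDIT4 window were also among the 11, so the DMSO counts are no background separate from the members. The Nutlin-3a shares include member windows as well. The palindrome was found in 0.179% of all windows and in 0 of the 146. With so low a share over all windows, the 0 is not read as a lack of the palindrome. These shares are descriptions: windows of neighbouring starts overlap each other, and base composition was not matched. The promoter windows of PIK3IP1 and PIK3R2 held neither GTTGC nor GTTGCC, but no interval touched them. AKT1S1 had no entry in the table.

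After Nutlin-3a, all 5 genes had an interval within 50 kb, as did 2.94% of all protein-coding genes, and after DMSO 4 of the 5 had one, against 0.559% of all genes. Because the genes were chosen for such intervals, nothing is read from these counts. In the same window, an interval of both lists was found at 4 of the 5 genes and at 0.294% of all genes. With a window of 5 kb the counts were the same, 5 after Nutlin-3a, against 1.11% of all genes, and 4 after DMSO, against 0.294%. The midpoint of every member interval lay inside its gene or, at DDIT4, no more than 1270 bp from it. The first interval beyond a window was 55565 bp from DDIT4, in the Nutlin-3a list, and the next nearest was 0.635 Mb from PIK3IP1.

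The strength of each interval is given by the authors' fold enrichment and by the −log10 q value of their peak caller. Ranks are within one list, from 1 for the highest −log10 q, and equal values share the better rank. The strongest interval of a gene is the one with its highest −log10 q, and the genes were chosen for their intervals. The strongest Nutlin-3a intervals lay above that list's median −log10 q of 10.2 in 5 of 5 cases, from which nothing is read. In order, they were those of PIK3R3 and AKT1S1 at a shared rank of 7, PIK3IP1 at 19, DDIT4 at 26 and PIK3R2 at 45 of 304. The DMSO order was different, with PIK3R2 at 12, DDIT4 at 13, PIK3IP1 at 17 and PIK3R3 at 21 of 213. Both orders depend on the ranking column. By fold enrichment the Nutlin-3a order was AKT1S1 at 6, PIK3R3 at 9, PIK3R2 at 30, PIK3IP1 at 35 and DDIT4 at 40, and the DMSO order PIK3R2 at 8, PIK3IP1 at 10, PIK3R3 at 15 and DDIT4 at 24. Without replicate values, it could not be tested whether neighbours in either order differ.

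**Figure D1:**
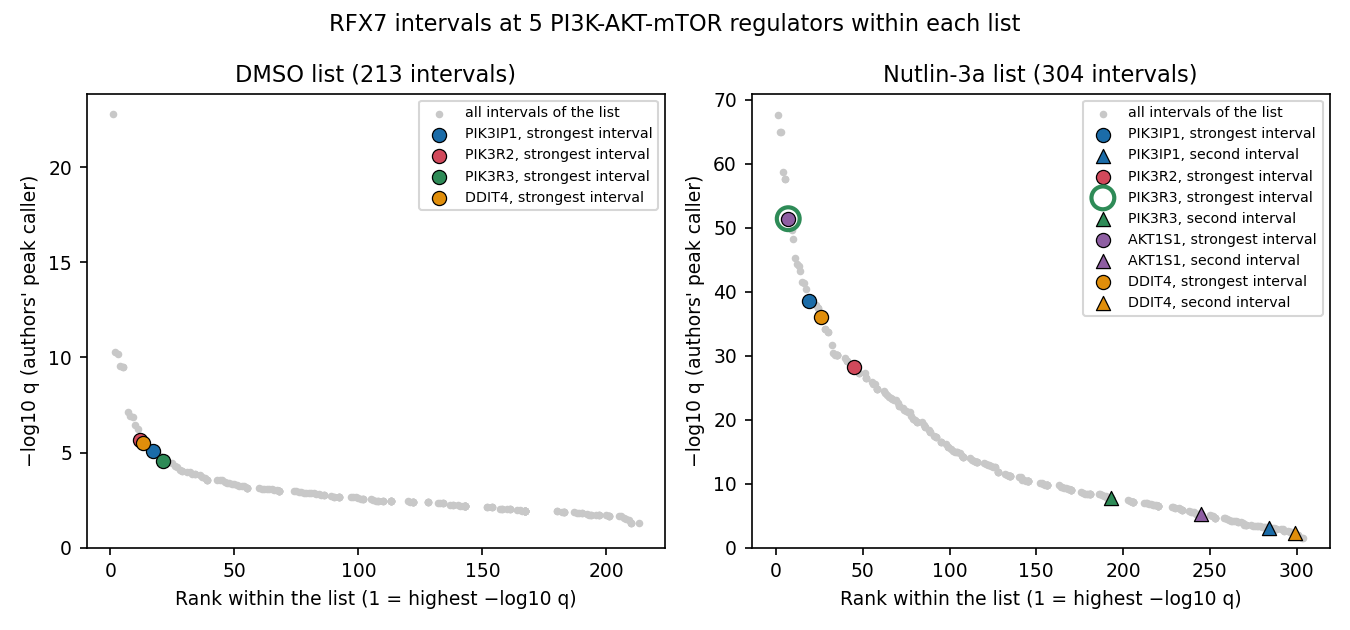
The −log10 q of each interval (vertical axis, from 0) against its rank within the list (horizontal axis), for DMSO on the left and Nutlin-3a on the right; grey points are all intervals, coloured circles the strongest interval of a gene and triangles a second one. The 4 DMSO intervals sit between ranks 12 and 21, and the Nutlin-3a circles between ranks 7 and 45, with PIK3R3 drawn as a ring around AKT1S1 because their values tie. The vertical scales of the panels differ.

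The PI3K regulatory subunits were bound inside the gene in both lists. PIK3R3 lies at chromosome 1, 46040140 to 46174901, and spans 134762 bp. Its Nutlin-3a interval, 46132369 to 46134068, had a fold enrichment of 10.4 (rank 9 by fold), and its −log10 q was 51.4. The DMSO interval, 46132995 to 46133360, had a fold enrichment of 3.85 (rank 15 by fold), and its −log10 q was 4.54. The midpoint of the Nutlin-3a interval was 41683 bp from the nearer end of the gene. PIK3R3 has 6 listed starts, and 3 of them fell within the Nutlin-3a interval, whose midpoint was 182 bp upstream of the nearest. The long non-coding RNA gene LOC101929626 begins on the opposite strand close by, with a boundary 153 bp from that midpoint, and the read-through gene P3R3URF-PIK3R3 also spans the site. The interval can therefore not be assigned to PIK3R3 alone. At 1700 bp it was the fourth widest of the Nutlin-3a list (rank 4 by width).

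PIK3R2 lies at chromosome 19, 18153163 to 18170532. Its Nutlin-3a interval, 18156934 to 18157674, had a fold enrichment of 8.11 (rank 30 by fold), and its −log10 q was 28.2. The DMSO interval, 18157193 to 18157398, had a fold enrichment of 4.09 (rank 8 by fold), and its −log10 q was 5.65. Both midpoints were in the gene body, 4141 and 4132 bp downstream of the single listed start. Among the 4 genes with a listed start, PIK3R2 was the one whose strongest interval was farthest from its own listed start. The nearest other protein-coding gene was MAST3, with a boundary 5617 bp away. The 2 midpoints were only 9 bp apart in position, the closest pair among the members. With 741 bp, it was also the narrowest of the strongest Nutlin-3a intervals, and the only one without a second interval beside it.

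PIK3IP1, the PI3K inhibitor, lies at chromosome 22, 31281593 to 31292534, on the minus strand. Its Nutlin-3a interval, 31290513 to 31291880, had a fold enrichment of 8.01 (rank 35 by fold), and its −log10 q was 38.6. The DMSO interval, 31290747 to 31290940, had a fold enrichment of 3.97 (rank 10 by fold), and its −log10 q was 5.08. The strongest interval was inside the gene, 1292 bp downstream of the nearer of 2 listed starts. The DMSO interval lay toward the side of the Nutlin-3a interval that is farther from the start, 1645 bp downstream of it. A weaker Nutlin-3a interval at 31292108 to 31292428, whose fold enrichment was 2.86 and −log10 q 3.13 (rank 284), was closest to the start, at 220 bp downstream. No interval reached the promoter windows of PIK3IP1.

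Both mTORC1 inhibitors also carried intervals, but only that of DDIT4 was in both lists. AKT1S1 lies at chromosome 19, 49869033 to 49878356. Its Nutlin-3a interval, 49869022 to 49870252, had a fold enrichment of 10.6 (rank 6 by fold), and its −log10 q was 51.4. It covered the lower boundary of the gene, 604 bp from the midpoint, while the upper boundary was 8719 bp away. The tables used here give no strand for AKT1S1, so neither boundary was assigned as its start. The DMSO list held no interval in the AKT1S1 window, and its nearest one was 2.63 Mb from the gene. AKT1S1 thus shared its −log10 q after Nutlin-3a with PIK3R3, which had a DMSO interval, and had none itself. An interval missing from a list of unknown depth does not show that RFX7 was not bound there, and the difference between the treatments was not tested.

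DDIT4 lies at chromosome 10, 72273924 to 72276036, and is the shortest member with 2113 bp. Its Nutlin-3a interval, 72272962 to 72274171, had a fold enrichment of 7.74 (rank 40 by fold), and its −log10 q was 36.1. The DMSO interval, 72273690 to 72273952, had a fold enrichment of 3.60 (rank 24 by fold), and its −log10 q was 5.52. It was the only member whose midpoints fell outside the gene, 358 bp upstream of the start after Nutlin-3a and 103 bp upstream after DMSO. The Nutlin-3a midpoint was inside DDIT4-AS1, a non-coding gene on the opposite strand, and 145 bp from its boundary, so the interval is common to both genes. DDIT4 and PIK3R3 were the members whose intervals contained a listed start of the gene.

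**Figure D2:**
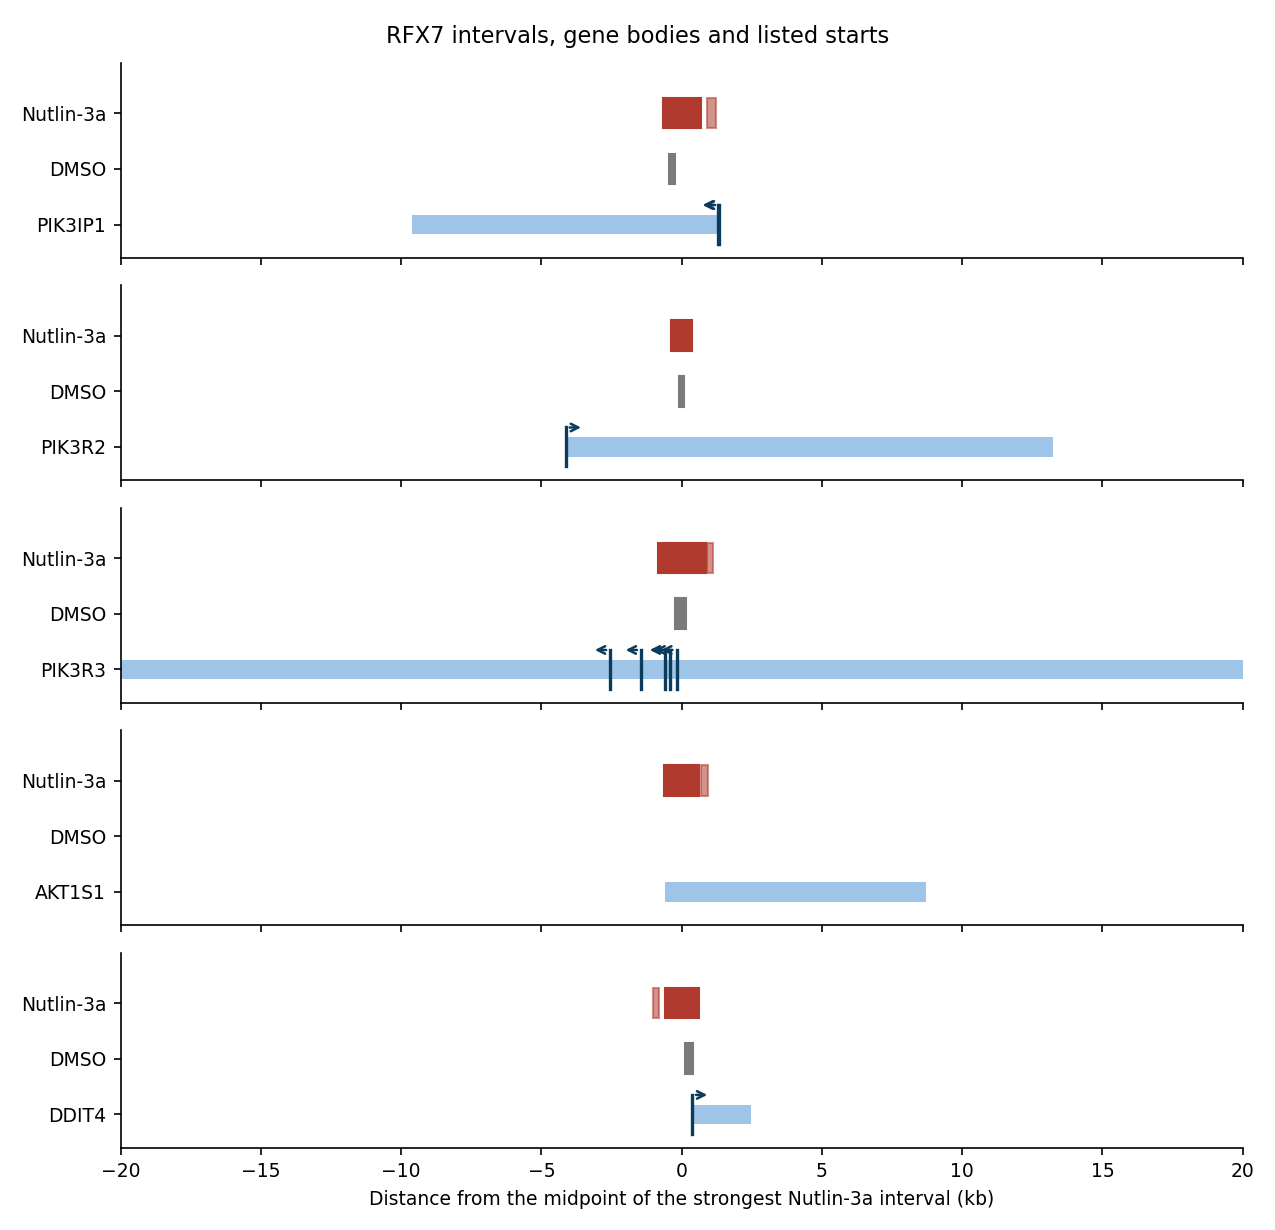
Position of the intervals (red, Nutlin-3a, with the second interval in light red; grey, DMSO) relative to the gene (blue) and its listed starts (dark lines, with arrows in the direction of transcription), in kb from the midpoint of the strongest Nutlin-3a interval, with genome positions rising to the right. The intervals of PIK3R3 and DDIT4 contain starts, those of PIK3IP1 and PIK3R2 lie 1292 and 4141 bp downstream of one, and AKT1S1 is drawn without a start because none was listed; PIK3R3 extends beyond both edges.

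At the 4 genes with intervals in both lists, the DMSO interval lay entirely within the Nutlin-3a interval. It took up 14.2% of its width at PIK3IP1, 21.5% at PIK3R3, 21.7% at DDIT4 and 27.8% at PIK3R2. At PIK3R2 and PIK3R3 the DMSO interval was near the centre, with midpoints 9 and 41 bp apart. At DDIT4 the midpoints were 255 bp apart, with the DMSO interval on the side of the start, and at PIK3IP1 they were 353 bp apart, with it on the side away from the start. The 4 sites belong to the 22 Nutlin-3a intervals that overlapped a DMSO interval by at least 1 bp, which were 7.24% of the Nutlin-3a list and 10.3% of the DMSO list. Among the 47 Nutlin-3a intervals ranked 45 or better, the range that holds the strongest member intervals, 36.2% overlapped a DMSO interval. That share includes the 4 member sites themselves, and the limit of 45 is the rank of PIK3R2. Widths move with read depth, which is unknown for both lists, and were not tested between treatments.

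**Figure D3:**
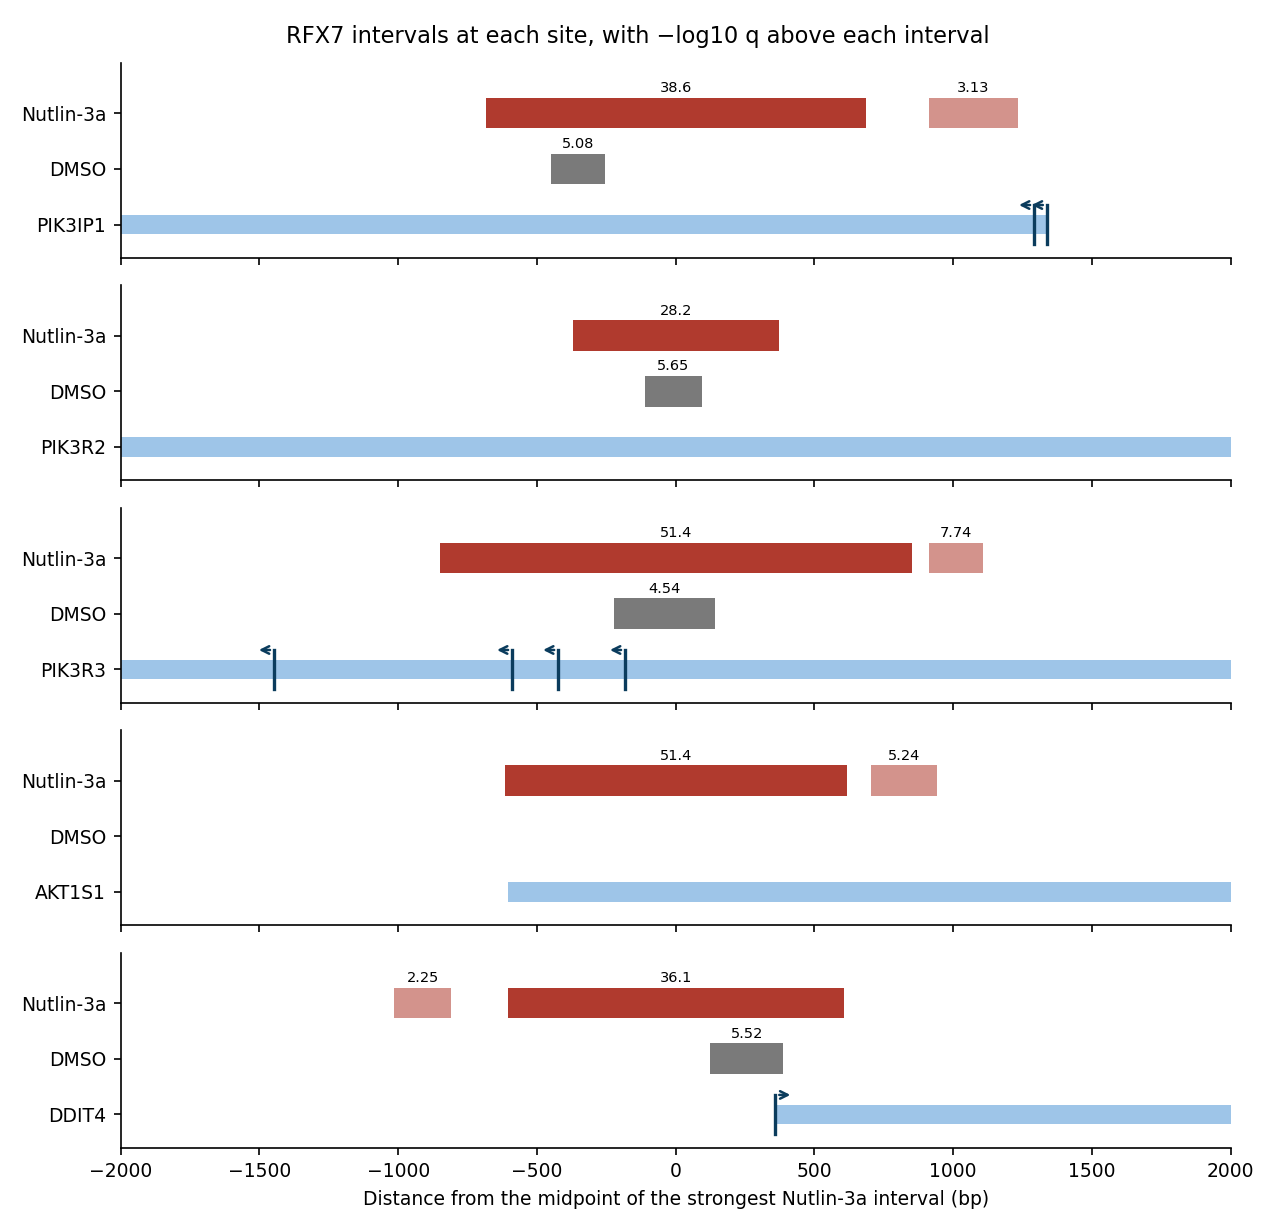
The same sites within 2 kb of the midpoint of the strongest Nutlin-3a interval, in bp, with the −log10 q printed above each interval, the gene in blue and listed starts as dark lines with arrows. Each DMSO interval (grey) sits inside the Nutlin-3a interval (red), off-centre at PIK3IP1 and DDIT4, and the second Nutlin-3a intervals (light red) lie 63 to 227 bp beyond the edge of the first.

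A second, weaker Nutlin-3a interval stood beside the strongest one at 4 of the 5 genes. The gap between them was 63 bp at PIK3R3, 86 bp at AKT1S1, 205 bp at DDIT4 and 227 bp at PIK3IP1. These second intervals were all below the list's median −log10 q, with values of 7.74 at PIK3R3 (rank 193), 5.24 at AKT1S1 (rank 245), 3.13 at PIK3IP1 (rank 284) and 2.25 at DDIT4 (rank 299). The second intervals are by definition the weaker ones of each gene, so nothing is read from their place below the median. Their fold enrichments were 4.22, 3.72, 2.86 and 2.83, so the strongest interval exceeded them by a factor of 2.46 at PIK3R3 to 2.85 at AKT1S1. None of the second intervals overlapped a DMSO interval. In the whole Nutlin-3a list only 7.24% of intervals did, so nothing is read from this. In the whole Nutlin-3a list 25.3% of intervals had a neighbour within 1 kb, and among those ranked 45 or better the share was 29.8%. Both shares include the members' own intervals, and the limit of 45 was set by the lowest rank among their strongest intervals. Whether the rows of such a pair are separate binding sites was not tested.

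The intervals most like each member's were sought by rank over the 2 lists, as the smallest summed difference in percent rank among the 22 sites in both lists. PIK3R3 was closest to the site 26 bp from a boundary of RFX5, itself an RFX family gene, with a difference of 1.32 percentage points (ranks 11 and 21 in the Nutlin-3a and DMSO lists). Both were among 4 intervals tied at rank 21 of the DMSO list, so this difference came from the Nutlin-3a ranks alone. PIK3R2 was closest to the site at PNRC1, with 1.46 (ranks 48 and 11), and then to that nearest to AZIN1, with 2.21. DDIT4 and PIK3IP1 were closest to each other, with 4.18. The second nearest was the site nearest to FOS for DDIT4, with 4.41, and that of RFX5 for PIK3IP1, with 4.51. PIK3IP1 was in turn the second nearest of PIK3R3, with 5.83. AKT1S1, absent from the DMSO list, was placed only in the Nutlin-3a list, tied with PIK3R3 at rank 7 and above the interval nearest to KDM4A at rank 9. Among the second intervals, that of PIK3IP1 tied with the interval nearest to TLE3 at rank 284, above that nearest to PMEPA1, and that of DDIT4 stood above the interval nearest to HLA-F and below 2 tied intervals, of which 1 was nearest to SHB. The second intervals of PIK3R3 and AKT1S1 shared their −log10 q with others, 10 intervals in all at rank 193 and 5 at rank 245, so no neighbour in rank could be singled out for them.

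Most other genes of the pathway, like most protein-coding genes, had no interval nearby. The pathway genes compared here were chosen with earlier results of these data known, so their shares are descriptions. Of 62 further genes for PI3K subunits, lipid phosphatases, AKT kinases, mTOR complexes and their regulators and effectors, 2 had a Nutlin-3a interval inside or within 5 kb (3.23%), against 1.11% of all protein-coding genes. They were GSK3B, a kinase inhibited by AKT, and SESN3, a sestrin that restrains mTORC1. The GSK3B interval, at chromosome 3, 120094830 to 120095109, was 522 bp outside the gene's boundary and 135 bp from the listed start of the divergent transcript GSK3B-DT. Its fold enrichment was 5.72 and its −log10 q 19.99 (rank 80). The SESN3 interval, at chromosome 11, 95231015 to 95231468, was inside the gene. It lay 1234 bp from the gene's boundary and 1055 bp from the listed start of LOC100129203. Its fold enrichment was 6.24 and its −log10 q 14.1 (rank 108). The GSK3B and SESN3 intervals within 5 kb ranked below all 5 strongest intervals of the members. The members were chosen for their intervals, so nothing is read from that order. In the DMSO list, 0 of the 62 genes had an interval within 5 kb, against a background of 0.294% of all genes. With so low a background, the count of 0 is not read as a lack of intervals.

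Within 50 kb, 4 of the 62 genes (6.45%) had a Nutlin-3a interval, against 2.94% of all protein-coding genes, and 1 (1.61%) had a DMSO interval, against 0.559%. The genes added by the wider window are named here after their values were seen. SESN2, another sestrin, had an interval in both lists, at chromosome 1, 28246955 to 28248545 after Nutlin-3a (rank 57), 11768 bp from the gene and closer to ATP5IF1. The DMSO interval there ranked 113 of 213, and a second Nutlin-3a interval at 28246528 to 28246744 ranked 230 of 304. DEPDC5, a subunit of the GATOR1 complex that inhibits mTORC1, had a Nutlin-3a interval 19237 bp away (rank 152) that was closer to YWHAH. SESN3 had a further and stronger interval, 21758 bp outside its boundary at chromosome 11, 95253711 to 95254756, whose fold enrichment was 8.81 and −log10 q 38.4 (rank 20), for which SESN3 was the nearest protein-coding gene. Its rank lay between those of PIK3IP1 and DDIT4.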

How the data were processed

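The submitters' processing notes name build hg38 and the tools bcl2fastq 2.20.0.422, Trimmomatic 0.39, cutadapt 2.10, FastQC 0.11.9, SAMtools 1.10, Picard, MACS2 2.2.7.1 and bedtools 2.29.2, without role or order. The aligner, the peak calling settings and the merging of replicates are not given in the sources used here. The authors deposited 1 list of merged peaks per treatment, with a fold enrichment (a ratio), a −log10 p, a −log10 q and a score derived from the −log10 q for each interval. The −log10 p and the score were not used. Read depth is unknown, and strength, width and number of intervals can move with it, so values were ranked within each list only. Input and single-replicate data were not analysed here, and 1 neighbouring gene is not reported here.

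Genes were placed with RefSeq GRCh38.p14, and starts and 300-base promoter windows came from the RefSeq promoter table, which held 4 of the 5 genes. Exons and UTRs were not assigned. Intervals were placed by their midpoint. The members and the list of 62 pathway genes were chosen with earlier results of these data known. All members were named, with the nearest genes of their intervals, pathway genes with an interval within 5 kb, and the intervals nearest in rank. No test was made, since each treatment has 1 list. Window, minimum −log10 q, overlap rule, ranking column, joining of neighbours and motif were varied. Counting, overlap and motif steps were tested on simulated data. Computation used Python 3.11.15, pandas 2.3.3 and numpy 2.4.6.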

Additional observations from a re-analysis of the deposited data

How the results depend on the processing

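Across 11 results, 34 values were recomputed under the alternatives, and 26 stayed within 1.5 times the reported value. With a −log10 q of at least 10, which only 3 DMSO intervals reach, the genes with a DMSO interval went from 4 to 0. Requiring 50% of both intervals to overlap left 0 of the 4 shared sites, because each DMSO interval takes up less than that part of the Nutlin-3a interval. Ranked by fold enrichment, the strongest intervals of PIK3IP1 and DDIT4 went to 35 and 40 and that of PIK3R2 from 45 to 30, ahead of both. Within 50 kb, the pathway genes with an interval numbered 4 after Nutlin-3a and 1 after DMSO. Genes with a motif match in a promoter window went from 1 with GTTGCC to 2 with GTTGC and 0 with the palindrome. Counting from listed starts left 4 of 5 genes with a Nutlin-3a interval, since AKT1S1 has none listed. Joining rows within 1 kb left 258 Nutlin-3a intervals and the members' ranks as they were; the joined rows keep the highest −log10 q, so this was close to fixed by construction. No paired analysis was possible because the deposited intervals are merged over replicates and carry no replicate number, and for that reason no replicate could be left out.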
